A study of Homo sapiens with 18 samples.

Results

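The genes of the pausing and elongation switch of RNA polymerase II (Pol II) were described one by one: CDK9, CCNT1 and CCNT2, which encode P-TEFb; HEXIM1; NELFA, NELFB, NELFCD and NELFE, which encode the negative elongation factor NELF; and SUPT5H and SUPT4H1, which encode DSIF. They were chosen by name, and are 10 of 19974 protein-coding genes on chromosomes 1 to 22 and X in the RefSeq table for GRCh38.p14. Each gene was taken from its annotated start to its annotated end with 5 kb on either side, and every called peak in that window was kept. The windows held 381 of the 601510 peaks of 16 immunoprecipitated libraries.

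All 18 libraries came from chromatin immunoprecipitation followed by sequencing or its inputs, made from human HCT116 colon cancer cells whose INTS11 protein is fused to an auxin-inducible degron (INTS11-AID). INTS11 is the RNA-cleaving subunit of Integrator, a complex that acts on Pol II near the starts of genes, and the auxin IAA triggers degradation of the tagged protein. All groups carried the degron, so Control means INTS11-AID cells without IAA, and no value here measures how much INTS11 was left. One antibody was raised to Pol II, and the others to phosphorylated tyrosine 1 (Tyr1P) or phosphorylated serine 2 (Ser2P) of the Pol II tail, the C-terminal domain. For each antibody there were 2 numbered libraries labelled IAA and 2 labelled Control. A further 4 Pol II libraries without a replicate number were labelled IAA, EGF, IAA+EGF and Control, 1 library each, and 2 libraries were inputs. For the unnumbered libraries labelled IAA and EGF the file names carry the treatments the other way round from the titles, and the title is used for each. Nothing here settles which is right, so what is said of label IAA or label EGF in these libraries holds by title alone. The labels share 1 treatment text: serum was withheld for 14 h, IAA was given at 500 µM (1 h), EGF at 100 ng per µl (30 min) and interferon beta at 2000 U (1 h). It does not say which library received what, and nothing says that libraries of a group came from separate cultures, so a p-value measures only the spread between these libraries, which may be technical.

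Pol II that has begun a transcript often stops a short way past the start of the gene, held there by DSIF and NELF. P-TEFb, the kinase CDK9 with cyclin T1 or T2, phosphorylates DSIF, NELF and serine 2 of the Pol II C-terminal domain, after which NELF leaves and elongation proceeds. HEXIM1, bound to the 7SK RNA, holds P-TEFb in an inactive form, and transcription of the HEXIM1 gene is known to rise when P-TEFb is released. The measurements are of Pol II on these genes, not of the proteins they encode.

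The 16 immunoprecipitated lists held 15420 peaks (Ser2P Control 2) to 99476 peaks (Ser2P IAA 1), so ranks are given as a percent of each list by deposited −log10 q, where a low percent is a strong peak. Depth estimated from the lists ran from 2.94 fragments per kb in Pol II Control 1 to 13.6 in Ser2P Control 1, with 9.34 and 10.5 in Ser2P IAA and 3.28 in Ser2P Control 2. The input lists held 1579 and 1004 peaks, of which 0 lay in the 10 windows. A peak within 1 kb of the annotated start is called a start peak, and one more than 1 kb inside both ends an interior peak. A gene gained a peak where both IAA libraries had one and neither Control library did, and lost it in the reverse case. With 2 libraries against 2 a two-sided exact permutation test cannot go below p = 0.333, so differences are described by whether the libraries of the groups overlap. A peak list also cannot separate fewer occupied cells from a lower occupancy in each cell.

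The promoter sequences of all 10 genes were matched in the RefSeq table for GRCh38.p14. The 200 bases before the start are given for HEXIM1, CCNT1, SUPT5H and SUPT4H1, because the results on Pol II position and Ser2P turn on these starts. Letters run 5′ to 3′ on the strand of the gene, and capitals mark matches to the motifs searched for. The regions are chr17:45148275-45148474 on the plus strand for HEXIM1, chr12:48716708-48716907 on the minus strand for CCNT1, chr19:39445382-39445581 on the plus strand for SUPT5H and chr17:58352202-58352401 on the minus strand for SUPT4H1.
HEXIM1: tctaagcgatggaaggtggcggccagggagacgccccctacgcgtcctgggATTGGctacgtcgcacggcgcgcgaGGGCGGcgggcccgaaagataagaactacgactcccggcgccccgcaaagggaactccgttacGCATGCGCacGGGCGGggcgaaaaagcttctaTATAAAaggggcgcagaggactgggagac
CCNT1: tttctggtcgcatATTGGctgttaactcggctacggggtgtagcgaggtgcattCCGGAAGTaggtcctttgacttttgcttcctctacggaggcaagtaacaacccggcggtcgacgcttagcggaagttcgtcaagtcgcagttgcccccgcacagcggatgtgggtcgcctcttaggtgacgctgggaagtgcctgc
SUPT5H: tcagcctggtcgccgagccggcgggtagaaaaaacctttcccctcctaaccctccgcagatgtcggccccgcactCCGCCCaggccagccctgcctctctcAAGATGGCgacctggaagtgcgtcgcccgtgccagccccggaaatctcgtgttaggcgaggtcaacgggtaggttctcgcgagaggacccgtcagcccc
SUPT4H1: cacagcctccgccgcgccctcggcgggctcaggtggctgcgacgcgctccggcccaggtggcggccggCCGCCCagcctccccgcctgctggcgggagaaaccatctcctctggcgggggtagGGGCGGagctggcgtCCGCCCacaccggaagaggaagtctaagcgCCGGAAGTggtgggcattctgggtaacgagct

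The search covered 250 bases before to 50 bases after each start on both strands, for 6 motifs. These were the TATA box as TATAAA, the CCAAT box, the GC box as GGGCGG, an ETS factor site as CCGGAAGT, part of an NRF1 site as GCATGCGC and a YY1 site as AAGATGGC. HEXIM1 was the one gene of the 10 with TATAAA, at positions -29 to -24 from its start, while 9.75% of 15813 protein-coding promoters held it. GGGCGG was found at 9 of the 10 genes, all but NELFA, against 58.3% of promoters. CCGGAAGT was found at CDK9, CCNT1, NELFE and SUPT4H1 (6.17% of promoters), GCATGCGC at CCNT2, HEXIM1, NELFB and NELFCD (4.27%), AAGATGGC at NELFA and SUPT5H (3.86%) and CCAAT at CCNT1, CCNT2 and HEXIM1 (36.4%). At CCNT2, NELFB and NELFCD the GCATGCGC matches on the 2 strands overlapped each other. A match is a run of letters and not a measured binding site.

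**Figure D1:**
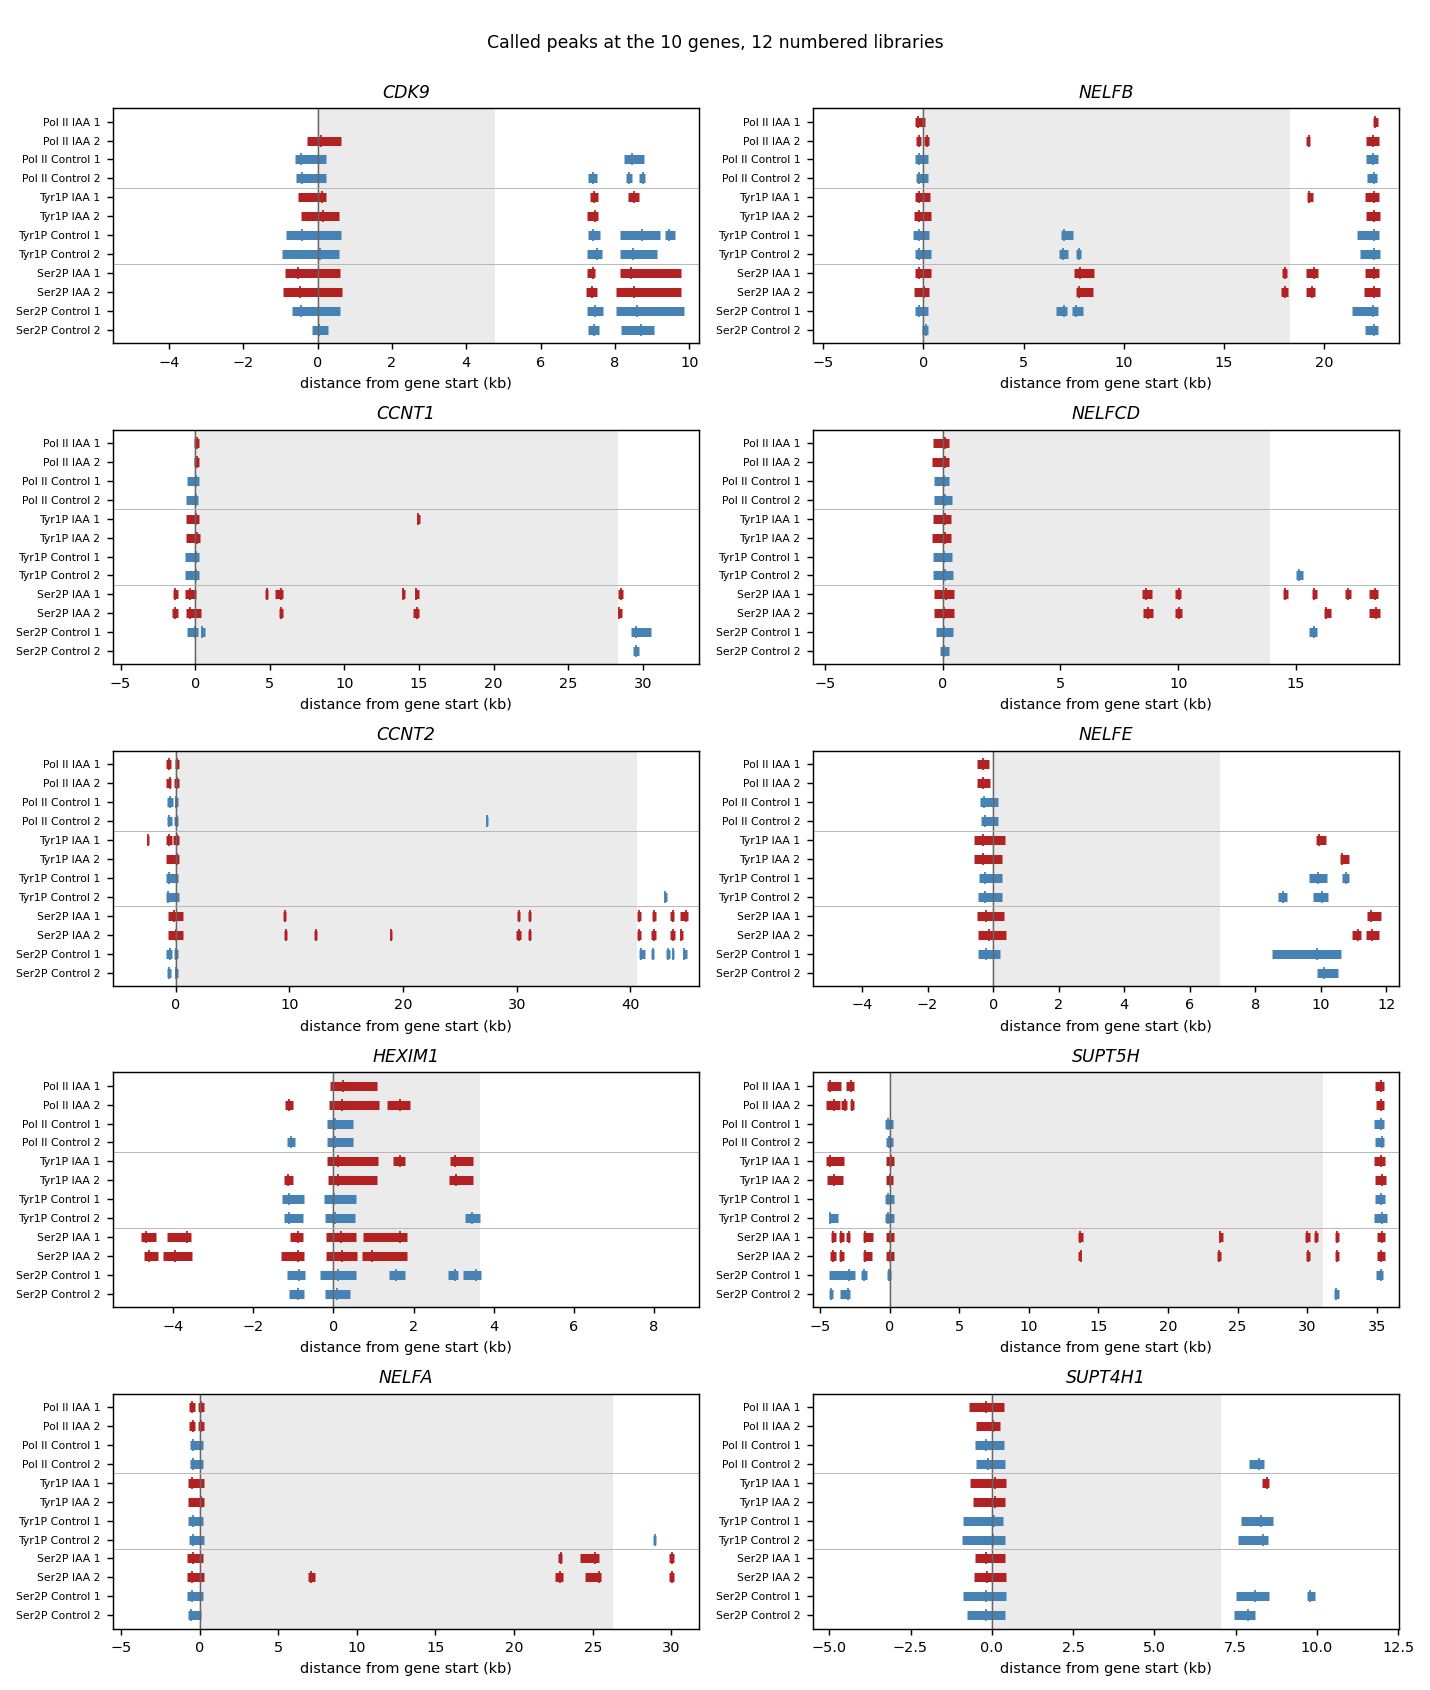
Called peaks in the windows of the 10 genes in the 12 numbered libraries, drawn to scale. The horizontal axis is the distance from the annotated start in kb in the direction of transcription, the grey band is the gene, bars span each peak (red IAA, blue Control) and ticks mark summits. Start peaks are present in nearly every library, and Ser2P peaks inside CCNT1, CCNT2, NELFA, NELFCD and SUPT5H appear only in the rows of the 2 IAA libraries.

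A Pol II peak lay within 1 kb of the start of nearly every gene of the switch. In the Control libraries all 10 genes had a Pol II start peak in both, as they also had in each of the 4 unnumbered libraries. A start peak was present in all 4 numbered libraries at 8 of the 10 genes, where 47.7% of all 19974 genes had one. The exceptions were CDK9, with a start peak in IAA 2 and none in IAA 1, and SUPT5H, which lost its start peak by the rule above (3.08% of all genes did). A start peak is set by distance and may lie on a neighbour. At NELFE, counted among the 8, the summits lay inside SKIC2, and the peaks of the numbered IAA libraries covered none of NELFE. For Tyr1P all 10 genes had a start peak in all 4 libraries (56.6% of all genes). For Ser2P 7 of the 10 did (40.3% of all genes); CCNT1, NELFE and SUPT5H had none in Control 2, the list with the fewest peaks.

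**Figure D2:**
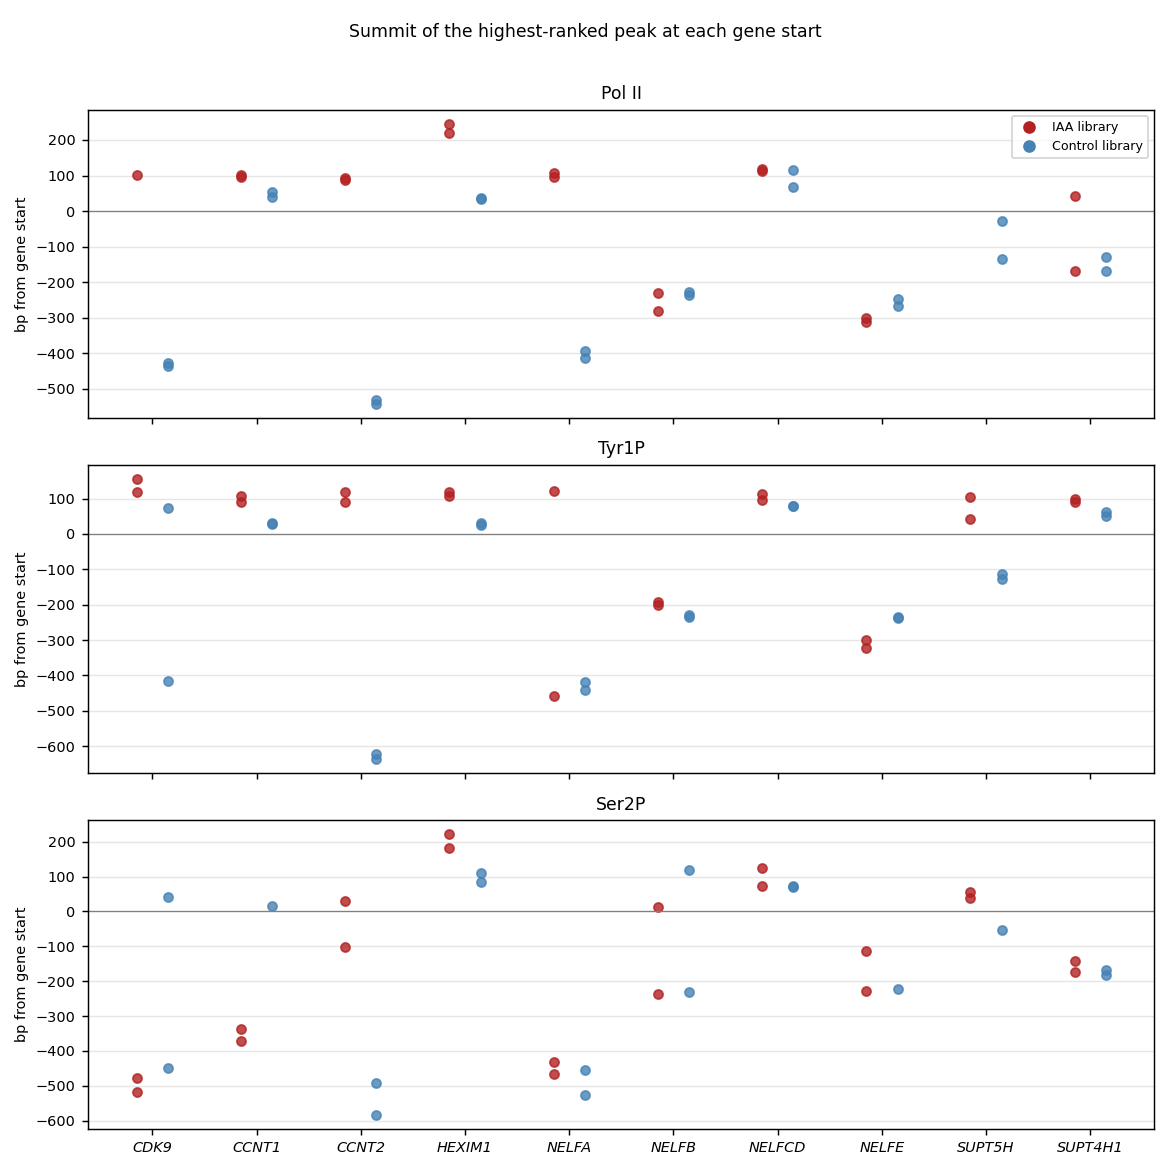
Position of the highest-ranked start peak at each gene in the 12 numbered libraries, in bp from the annotated start (positive is downstream), IAA in red to the left of Control in blue. For Pol II the IAA summits of CCNT1, CCNT2, HEXIM1 and NELFA lie downstream of both Control summits, and the points of HEXIM1 sit at 246 and 221 bp with IAA and at 38 and 35 bp in Control.

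The summit of the Pol II start peak lay further downstream in both IAA libraries than in both Control libraries at 4 of the 8 genes that could be compared, CCNT1, CCNT2, HEXIM1 and NELFA. The same held for 47.5% of 7860 genes, so this count did not stand apart from other genes. For Tyr1P it held at 8 of 10 genes, all but NELFA and NELFE, against 46.9% of 9246 genes. NELFE was the gene of the list whose summit lay further upstream with IAA, for both antibodies (23.5% of genes for Pol II and 22.0% for Tyr1P). Those summits lay inside SKIC2, which starts beside NELFE on the other strand, so the same shift was downstream in SKIC2. For Pol II they lay 108 and 96 bp past the SKIC2 start with IAA and 62 and 43 bp in Control. For Tyr1P the distances were 118 and 96 bp with IAA and 35 and 31 bp in Control. The median shift over all genes was 32 bp for Pol II and 23 bp for Tyr1P. The Pol II start peak was narrower with IAA at 5 of the 8 genes, where 31.5% of all genes were, and wider at HEXIM1 alone of the 8 (23.5% of all genes).

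CDK9, the kinase of P-TEFb, lies on chromosome 9 (127786034 to 127790792, plus strand, 4759 bp). Its Pol II start peak was called in IAA 2 with the summit at 101 bp and a deposited fold of 5.41, and not in IAA 1. In Control the summits lay upstream of the gene at -436 and -428 bp, with folds of 6.10 and 9.50. The 4 unnumbered libraries had it at 85 bp (label IAA), 96 bp (label EGF), 66 bp (IAA+EGF) and 77 bp (Control), so the upstream position of the numbered Control summits was not seen in the unnumbered Control. The microRNA genes MIR3960 and MIR2861 are annotated just upstream, ending 111 and 27 bp before the start of CDK9.

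CDK9 also differed past its end. Pol II peaks downstream of CDK9 were called at 8465 bp in Control 1 and at 7399, 8381 and 8767 bp in Control 2, and in neither IAA library. Loss of a Pol II peak in the flank 1 to 5 kb past the end was called at 1.67% of 15813 genes with a known strand. The Ser2P peaks at the same place were present in all 4 libraries, with summits at 8425 and 8523 bp with IAA and 8601 and 8693 bp in Control, and spanned 1647 and 1751 bp with IAA against 1842 and 869 bp in Control. Tyr1P was called downstream in all 4 libraries, though in IAA 2 at 7455 bp alone. The unnumbered libraries labelled IAA, EGF and Control had a Pol II peak near 8.4 kb, at 8450, 8370 and 8329 bp, and the one labelled IAA+EGF had none.

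CCNT1 encodes cyclin T1 and lies on chromosome 12 (48688458 to 48716707, minus strand, 28250 bp). Its Pol II start summit lay at 102 and 96 bp in the IAA libraries and at 55 and 39 bp in the Control libraries. The peak itself was 314 and 311 bp wide with IAA and 799 and 806 bp wide in Control, so the groups did not overlap and the peak mean was 312.5 ± 2.12 bp with IAA against 802.5 ± 4.95 bp in Control (SD, n = 2 each; exact permutation p = 0.333). In the numbered Control libraries the peak reached across the promoter sequence, and in the numbered IAA libraries it kept to a short stretch around the start and the first part of the gene. No unnumbered Pol II library showed the narrow peak: its width was 1051 bp (label IAA), 956 bp (label EGF), 977 bp (IAA+EGF) and 950 bp (Control). The Tyr1P start peak did not narrow in the same way: it spanned 876 and 947 bp with IAA and 894 and 927 bp in Control.

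Past the start, Ser2P on CCNT1 differed at both ends. The Ser2P peak beyond the gene lay at 29537 and 29520 bp in Control, just over 1 kb past the end, and there was none with IAA, where a peak lay instead at 28541 and 28396 bp, around the annotated end. A lost downstream Ser2P peak was called at 0.569% of genes. Upstream, both IAA libraries had a Ser2P peak at -1344 and -1325 bp that neither Control library had (7.18% of genes gained one in this flank), and the start summit lay at -338 and -371 bp with IAA and at 15 bp in Control 1.

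CCNT2 encodes cyclin T2 and lies on chromosome 2 (134918822 to 134959342, plus strand, 40521 bp), with the antisense RNA gene CCNT2-AS1 starting 216 bp upstream on the other strand. All 4 numbered Pol II lists had a pair of start peaks, one at -546 and -531 bp with IAA and -532 and -543 bp in Control, and one at 92 and 87 bp with IAA and 47 and 87 bp in Control. In the numbered libraries, what differed was which of the pair ranked higher. The downstream one ranked at 13.3% and 26.6% of the IAA lists, ahead of the upstream one at 46.6% and 33.9%. In the Control lists the downstream one ranked at 38.7% and 33.9%, behind the upstream one at 16.1% and 26.1%. The order in replicate 2 lay within counting error. In IAA 2 the stacks were 58 fragments downstream (95% range 44.0 to 75.0) and 51 upstream (38.0 to 67.1). In Control 2 they were 40 downstream (28.6 to 54.5) and 47 upstream (34.5 to 62.5). The unnumbered library labelled IAA had the order of the numbered Control lists, with the upstream peak at -639 bp ranked at 11.4% and the downstream one at 77 bp at 23.8%. The highest summit lay at 65 bp in the one labelled EGF, at 110 bp with IAA+EGF and at -640 bp in the unnumbered Control. By file name the summit at -639 bp belongs to EGF and that at 65 bp to IAA. In the numbered Tyr1P lists the highest summit lay at 90 and 118 bp with IAA and at -623 and -637 bp in Control.

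HEXIM1, the 7SK-bound inhibitor of P-TEFb, had the highest-ranked Pol II start peak of the 10 genes in 3 of the 4 numbered lists, all but IAA 2, where NELFA ranked higher. The gene lies on chromosome 17 (45148475 to 45152099, plus strand, 3625 bp), and the RNA gene HEXIM2-AS1 overlaps its downstream part on the other strand. Its Pol II start peak ranked within the top 0.493% and 1.92% of the IAA lists and the top 0.646% and 0.766% of the Control lists. It was the one gene of 8 in the top 10% of all 4 Pol II lists, where 8.14% of genes were. The deposited fold was nevertheless moderate, 7.39 and 6.23 with IAA and 12.3 and 10.8 in Control. The local background at the summit was high, 31.5 and 46.4 fragments with IAA and 15.4 and 19.7 in Control.

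In the numbered libraries the HEXIM1 peak lay further into the gene with IAA and was wider for Pol II and Tyr1P. Pol II summits lay at 246 and 221 bp in the IAA libraries and at 38 and 35 bp in the Control libraries, which gave 233.5 ± 17.7 bp with IAA and 36.5 ± 2.12 bp in Control (SD, n = 2 each; exact permutation p = 0.333). The peak spanned 1163 and 1253 bp with IAA and 657 and 643 bp in Control. The groups were apart in both measures. Tyr1P gave the same order, with summits at 118 and 108 bp with IAA and 26 and 32 bp in Control, and widths of 1272 and 1242 bp with IAA and 807 and 761 bp in Control. The Tyr1P start peak was wider with IAA, without overlap, at 28.3% of 9246 genes.

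Ser2P summits at HEXIM1 lay at 181 and 221 bp with IAA and 109 and 86 bp in Control, while the widths, 740 and 792 bp with IAA and 885 and 641 bp in Control, overlapped. The Ser2P summit lay further downstream with IAA, without overlap, at 30.3% of 6500 genes. Pol II peaks covered 29.8% and 47.1% of the gene with IAA and 13.7% and 13.7% in Control. The stacks of fragments at these summits were 239 and 294 with IAA and 201 and 223 in Control for Pol II. They lay below the highest stack of each list, 391 and 396 with IAA and 378 and 324 in Control. In the unnumbered Pol II libraries the start peak spanned 840 bp (label IAA), 1182 bp (label EGF), 2007 bp (IAA+EGF) and 768 bp (Control), with summits at 24, 102, 82 and 33 bp in that order. By file name the width of 840 bp and summit at 24 bp belong to EGF. Those of 1182 bp and 102 bp then belong to IAA.

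Downstream of its start HEXIM1 carried further peaks. With IAA, Tyr1P peaks were called at 1654 and 3038 bp in IAA 1 and at 3063 bp in IAA 2, and Pol II at 1671 bp in IAA 2, and in Control a Tyr1P peak was called at 3458 bp in Control 2. Ser2P was called at 1653 bp in IAA 1, at 959 bp in IAA 2 and at 1559, 3027 and 3572 bp in Control 1. The IAA 2 summit fell just short of the interior, so HEXIM1 had interior Ser2P peaks in IAA 1 and Control 1 and was not called gained. Upstream, Ser2P peaks lay at -4668 and -3643 bp in IAA 1 and at -4598 and -3947 bp in IAA 2, and in neither Control list (7.18% of genes gained one in this flank). They ranked at 60.1% and 86.2% of the IAA 1 list and at 46.4% and 44.4% of the IAA 2 list. The peaks at -4668 and -4598 bp lay inside ACBD4, a neighbour on the same strand.

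**Figure D3:**
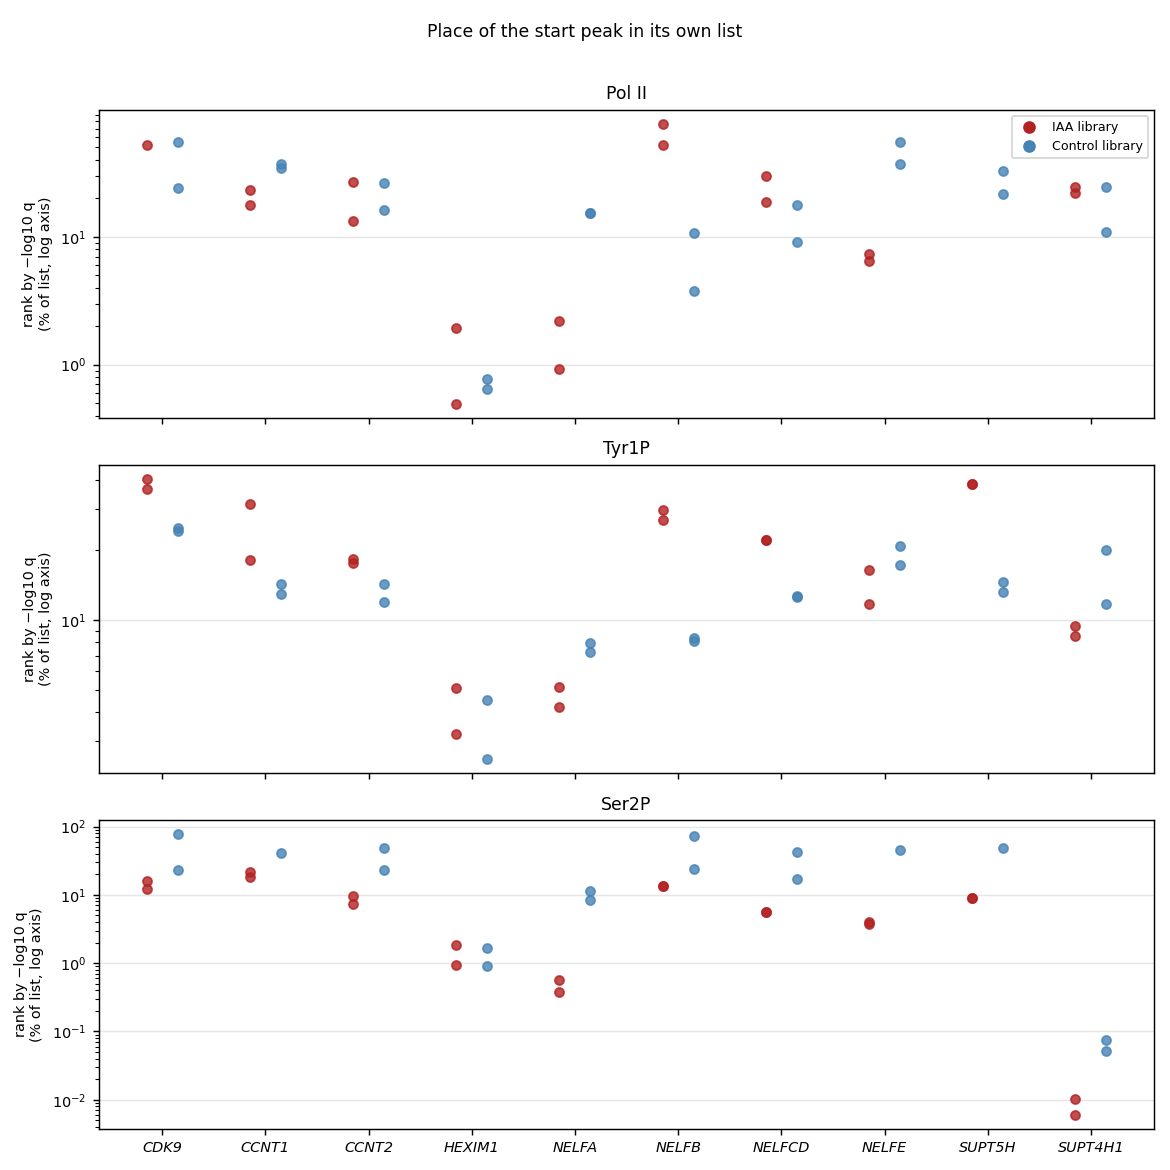
Rank of the highest-ranked start peak by deposited −log10 q as a percent of its own list (log axis, low is strong), for Pol II, Tyr1P and Ser2P, IAA in red to the left of Control in blue. HEXIM1 lies at or below 1.92% in the 4 Pol II lists, and SUPT4H1 lies between 0.00603% and 0.0748% in the 4 Ser2P lists; lists differ in length, so ranks show place within a list and no change between lists.

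NELF is built of subunits A, B, C or D, and E. NELFA lies on chromosome 4 (1982723 to 2008974, minus strand, 26252 bp), and the gene LOC124900839 ends 32 bp before its start. Its highest Pol II summit lay at 95 and 107 bp with IAA and at -415 and -395 bp in Control. The IAA lists held a weaker peak upstream as well, at -506 and -440 bp, so the upstream site was called in all 4 numbered libraries and the downstream peak, as a peak of its own, in the 2 with IAA. The downstream peak ranked at 2.18% and 0.923% of the IAA lists with a fold of 14.9 and 17.5. In the unnumbered libraries the highest summit lay upstream in all 4, at -413 bp (label IAA), -455 bp (label EGF), -422 bp (IAA+EGF) and -414 bp (Control), with a second peak at 82 bp for the label EGF. By file name the library with the second peak at 82 bp belongs to IAA.

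NELFA also had a high-ranked Ser2P start peak. The start peak ranked at 0.381% and 0.575% of the IAA lists and at 8.46% and 11.3% of the Control lists, with 205 and 218 stacked fragments with IAA and 85 and 36 in Control. Estimated depth was 9.34 and 10.5 fragments per kb with IAA and 13.6 and 3.28 in Control. A lower rank percent with IAA was not particular to NELFA. It was seen at every gene of the list but HEXIM1, for example at NELFCD (5.63% and 5.69% with IAA, 17.2% and 42.4% in Control). At CCNT1, NELFE and SUPT5H it rests on Control 1 alone. The IAA lists were longer, with 99476 and 88987 peaks against 37442 and 15420 in Control. The share of all genes with a lower rank percent was not computed, so these ranks show place within a list only. The Ser2P summit of NELFA stayed upstream in all 4 lists, at -432 and -466 bp with IAA and -455 and -526 bp in Control. Beyond the gene, Ser2P peaks at 30034 and 30025 bp were called with IAA and not in Control (11.7% of genes gained a downstream Ser2P peak). Both lay inside NSD2, a protein-coding gene on the other strand that ends beside NELFA.

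NELFB lies on chromosome 9 (137255327 to 137273542, plus strand, 18216 bp) and shares its promoter region with CIMIP2A, which starts 205 bp upstream on the other strand. Its Pol II summit lay on the CIMIP2A side in all 4 numbered libraries, at -280 and -230 bp with IAA and -228 and -237 bp in Control. The stacks held 15 and 23 fragments with IAA and 55 and 95 in Control, and the peaks ranked at 76.7% and 52.5% of the IAA lists and 10.7% and 3.80% of the Control lists. The estimated depth of these libraries was 5.04 and 6.06 fragments per kb with IAA and 2.94 and 5.72 in Control, ranges that overlap. In the unnumbered libraries the stacks held 92 (label IAA), 63 (label EGF), 47 (IAA+EGF) and 98 fragments (Control), so the low stacks were not seen for the label IAA. By file name the stack of 92 belongs to EGF and that of 63 to IAA. The summits of the unnumbered libraries lay inside NELFB at 70 bp (label IAA), 79 bp (label EGF) and 52 bp (Control), and on the CIMIP2A side at -264 bp with IAA+EGF. Pol II peaks near 22.4 kb lay on the start of TOR4A, 22399 bp from that of NELFB, and were called in all libraries.

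Inside NELFB a Tyr1P peak was lost. It was called at 6998 bp in Control 1 and at 6942 and 7781 bp in Control 2 and in neither IAA list, as for 3.19% of 18727 genes of at least 2 kb. Ser2P was called at the same place in 3 of 4 libraries, at 7803 and 7780 bp with IAA and at 7018 and 7636 bp in Control 1. Pol II was called there in the unnumbered Control (7067 bp) and in the library labelled IAA (6923 and 7698 bp), and not in those labelled EGF and IAA+EGF. By file name the peaks at 6923 and 7698 bp belong to EGF.

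NELFCD lies on chromosome 20 (58981256 to 58995113, plus strand, 13858 bp), end to end with CTSZ. Its start peak differed little between groups for Pol II, with summits at 118 and 112 bp with IAA and 68 and 116 bp in Control and widths of 660 and 721 bp with IAA and 641 and 745 bp in Control. NELFE lies on chromosome 6 (31952087 to 31958971, minus strand, 6885 bp), and SKIC2 starts 204 bp upstream on the other strand. Its Pol II summits lay past the start of SKIC2 in all 4 numbered libraries, at -312 and -300 bp with IAA and -266 and -247 bp in Control, and the peaks were 356 and 416 bp wide with IAA and 545 and 517 bp in Control. The stacks held 52 and 77 fragments with IAA and 18 and 31 in Control, at estimated depths of 5.04 and 6.06 fragments per kb with IAA and 2.94 and 5.72 in Control. In the unnumbered libraries they held 82 (label IAA), 50 (label EGF), 52 (IAA+EGF) and 100 fragments (Control), so the higher stacks with IAA were not seen there. Pol II peaks covered none of the NELFE gene in the 2 numbered IAA libraries and 1.99% and 2.00% of it in the numbered Control libraries. The unnumbered libraries did not show this, since they covered 4.07% (label IAA), 3.92% (label EGF), 3.67% (IAA+EGF) and 3.53% (Control) of the gene.

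SUPT5H encodes the large subunit of DSIF and lies on chromosome 19 (39445582 to 39476670, plus strand, 31089 bp). It lost its Pol II start peak: the summits lay at -135 and -29 bp in Control with folds of 7.96 and 8.72, and no start peak was called with IAA. Both IAA libraries instead had Pol II peaks upstream, at -4272 and -2794 bp in IAA 1 and at -4022, -3178 and -2663 bp in IAA 2, where the numbered Control libraries had none. A gained upstream Pol II peak was called at 1.02% of genes. The local background under the IAA upstream peaks was 22.1 to 22.6 fragments in IAA 1 and 35.5 to 36.4 in IAA 2. It was 4.03 and 5.99 at the Control start peaks. These are different places, and background is known only under a called peak, so the groups cannot be compared at 1 place for Pol II. The genome-wide background was 0.988 and 1.2 with IAA and 0.558 and 0.927 in Control.

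The Tyr1P start peak of SUPT5H was called in all 4 libraries, with a higher local background in the IAA libraries. Its deposited fold was 2.94 and 3.08 with IAA and 8.62 and 8.41 in Control, on a local background of 31.0 and 30.2 fragments with IAA and 18.4 and 21.1 in Control. Stacks at the summit were 93 and 95 fragments with IAA and 166 and 185 in Control. Upstream Tyr1P peaks lay at -4302 and -3974 bp with IAA and at -4247 bp in Control 2. A Ser2P start peak was called at 40 and 56 bp with IAA, with stacks of 169 and 197 fragments. In Control it was called at -53 bp in Control 1 with 93 fragments, and not in Control 2, the shallowest Ser2P library. Upstream of SUPT5H, Ser2P peaks were called in all 4 Ser2P libraries. The unnumbered Pol II libraries all had a start peak, and those labelled EGF and IAA+EGF also had an upstream peak at -3912 and -3893 bp, which those labelled IAA and Control did not. By file name the peak at -3912 bp belongs to IAA, and the library labelled IAA belongs to EGF. Peaks near 35.3 kb lay on the start of TIMM50, 35256 bp from that of SUPT5H, and were called in all 4 numbered Pol II lists.

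SUPT4H1 encodes the small subunit of DSIF and lies on chromosome 17 (58345178 to 58352201, minus strand, 7024 bp). RNF43 ends 299 bp before its start and the RNA gene TSPOAP1-AS1 overlaps it on the other strand. Its Ser2P start peak was among the strongest peaks of every Ser2P list, number 6 and 9 of the IAA lists and number 28 and 8 of the Control lists. No other gene of the list had a Ser2P start peak in the top 1% of all 4 lists, and 1.02% of 6500 genes did. The summit lay at -174 and -143 bp with IAA and -168 and -183 bp in Control, within the sequence shown above. The peak was 917 and 983 bp wide with IAA and 1335 and 1169 bp in Control, and narrower with IAA at 3.05% of genes.

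The Pol II start peak of SUPT4H1 was not outstanding in the same way, at 24.7% and 21.8% of the IAA lists and 24.7% and 10.9% of the Control lists. The Ser2P stacks, 416 and 441 fragments with IAA and 389 and 238 in Control, lay beside a highest stack of 439 and 482 in the IAA lists and 456 and 434 in the Control lists, where stacks reach a ceiling of 2 fragments per position in all but Control 2. Beyond the end of the gene, Ser2P was called at 8095 and 9790 bp in Control 1 and at 7873 bp in Control 2, and not with IAA. Tyr1P there was called at 8480 bp in IAA 1 and at 8271 bp in Control 1 and 8347 bp in Control 2.

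Ser2P inside the genes differed between the groups. Summed over the 10 genes there were 16 and 14 interior Ser2P peaks in the IAA libraries and 3 and 0 in the Control libraries, a difference of 13.5 peaks (exact permutation p = 0.333). The 3 in Control 1 lay at NELFB and HEXIM1. Interior peaks were gained at 5 of the 10 genes, CCNT1, CCNT2, NELFA, NELFCD and SUPT5H, and lost at 0. Of all 18727 genes of at least 2 kb, 19.8% gained and 0.155% lost them. By number of interior peaks, the same 5 genes had more in both IAA libraries than in both Control libraries, as did 42.0% of all genes, so by that measure the list lay near the background. This count changed with list length: with the 4 Ser2P lists limited to their strongest 15270 peaks each, 0 of the 10 genes gained an interior peak, 1.77% of all genes did, and the difference summed over the 10 genes was 0.5 peaks.

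Several interior peaks recurred at the same place in the 2 IAA libraries. CCNT1 had summits at 4804, 5779, 13947 and 14811 bp in IAA 1 and at 5766 and 14874 bp in IAA 2. CCNT2 had them at 9590, 30223 and 31125 bp in IAA 1 and at 9673, 12333, 18951, 30222 and 31133 bp in IAA 2. At NELFCD they lay at 8619 and 10009 bp in IAA 1 and at 8728 and 10024 bp in IAA 2. Every IAA 1 summit of NELFCD and CCNT2 thus had a neighbour in IAA 2, while CCNT1 had unmatched summits in IAA 1.

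SUPT5H had interior summits at 13669, 23773 and 30013 bp in IAA 1 and at 13716 and 23647 bp in IAA 2, with a further one at 30091 bp that fell within 1 kb of the gene end. NELFA had them at 22994 and 25112 bp in IAA 1 and at 7108 and 22935 bp in IAA 2, with one at 25400 bp within 1 kb of the end. Over all 16 and 14 interior peaks of the 10 genes the median fold was 3.47 in IAA 1 and 4.1 in IAA 2, and the median rank was 67.9% and 73.5% of the lists, in their weaker part. Inside CCNT2 the local background of 2.05 fragments in IAA 1 equalled the genome-wide one.

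**Figure D4:**
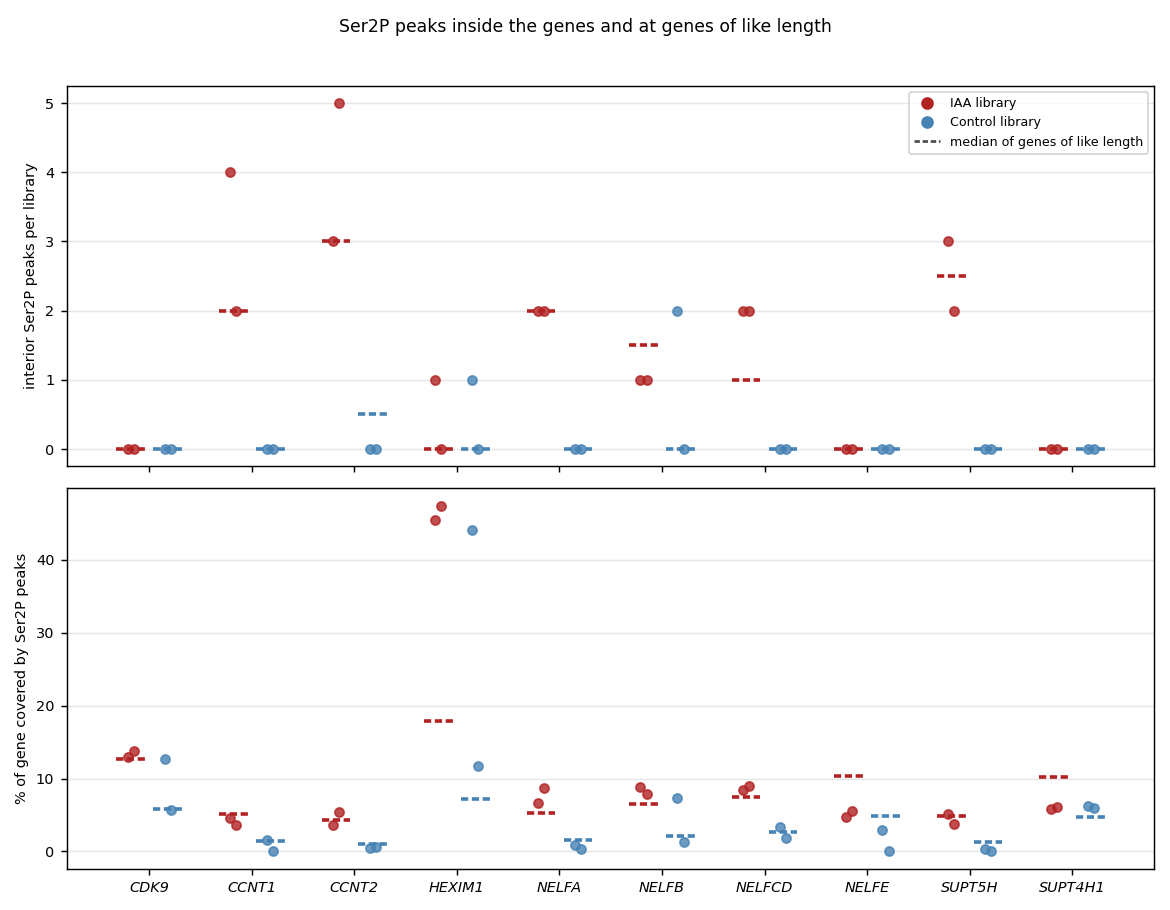
Interior Ser2P peaks per library (top) and percent of the gene covered by Ser2P peaks (bottom) for the 10 genes, IAA in red to the left of Control in blue, with dashed lines for the median of genes of like length that had a Pol II start peak in all 4 numbered libraries. The IAA points of the 5 gaining genes lie near the dashed line of like genes, and HEXIM1 stands above its line in covered share, with means of 46.4% with IAA and 27.9% in Control.

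Set beside genes of 0.8 to 1.2 times their length with a Pol II start peak in all 4 numbered libraries, 5227 genes in all, the share that gained interior Ser2P peaks ran from 5.23% at the length of HEXIM1 to 34.1% at the length of NELFA. The mean share over the 10 lengths was 22.7%, where 5 of the 10 genes gained. Without Ser2P Control replicate 1 it was 39.2%, where 6 of the 10 genes gained. With the replicate block, which counts more interior peaks with IAA within both pairs, it was 40.5%, where 5 gained. The share is thus not a fixed level to read 5 of 10 genes against. CDK9 and SUPT5H themselves lack the Pol II start peak in all 4 libraries that the like genes had. Among like genes without an interior peak in Control, the gaining share was 63.1% at the length of CCNT1, 66.6% at that of CCNT2, 60.7% at that of NELFA, 41.5% at that of NELFCD and 64.2% at that of SUPT5H. At the lengths of 4 of the 5, all but NELFCD, most like genes without a Control peak thus gained one too. Their mean number of interior peaks with IAA was 3 for CCNT1 (like genes, median 2), 4 for CCNT2 (median 3), 2 for NELFA (median 2), 2 for NELFCD (median 1) and 2.5 for SUPT5H (median 2.5).

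The other 5 genes did not gain. CDK9, NELFE and SUPT4H1, each under 8 kb, had 0 interior Ser2P peaks in every library. NELFB had 1 and 1 with IAA and 2 and 0 in Control, where the median of like genes was 1.5 with IAA. HEXIM1 had 1 and 0 with IAA and 1 and 0 in Control. Ser2P peaks nevertheless covered 45.4% and 47.4% of HEXIM1 with IAA and 44.0% and 11.8% in Control, beside medians of 17.8% with IAA and 7.15% in Control for genes of its length.

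In the full lists, interior Tyr1P peaks did not differ between the groups as interior Ser2P peaks did. Interior Tyr1P peaks summed over the 10 genes numbered 2 and 0 with IAA and 1 and 2 in Control, a difference of -0.5 peaks between groups that overlapped. Pol II itself had 0 and 1 interior peaks with IAA and 0 and 1 in Control. The Ser2P lists held 99476 and 88987 peaks with IAA and 37442 and 15420 in Control. For Tyr1P they held 33077 and 30461 with IAA and 38821 and 37848 in Control. With lists of equal length the difference was 0.5 peaks for Ser2P and -1 for Tyr1P. Whether list length accounts for the contrast between the antibodies was not tested.

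Of 23 further genes of pausing and elongation, named in a list of the super elongation complex, the 7SK particle, the PAF complex and histone chaperones, 5 gained interior Ser2P peaks and 0 lost them, beside the 19.8% and 0.155% of all genes, and 13 had more of them in both IAA libraries than in both Control libraries, beside the 42.0%. The 5 that gained were ELL2, a subunit of the super elongation complex; LARP7 and HEXIM2, of the 7SK particle; and CTR9 and LEO1 of the PAF complex. Their interior Ser2P peaks numbered 8 and 4 with IAA at LEO1, 4 and 5 at ELL2, and 1 and 1 at LARP7, HEXIM2 and CTR9, against 0 in both Control libraries. A Pol II start peak in all 4 numbered libraries was called at 19 of the 23, and it was lost at MLLT1.

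The genes most like CDK9, NELFB, SUPT5H and HEXIM1 were sought among genes of like length by the mean absolute difference in covered share over the 12 numbered libraries. Likeness in covered share thus follows from the choice, and the values only describe the match. For SUPT5H this was PPP6R1 (chromosome 19, 55228218 to 55259017), 0.247 percentage points away where the median of 2114 genes was 1.21. Pol II covered none of either gene in the numbered IAA libraries, and 0.814% of SUPT5H and 0.820% of PPP6R1 in Control. For NELFB it was NUP42 (0.656 points, median of 2029 genes 2.42), and for CDK9 it was SYNE4 (2.18 points, median of 1109 genes 7.89). For HEXIM1 it was MYEOV on chromosome 11, at 7.28 points (median of 954 genes 28.7). Pol II covered 38.4% of HEXIM1 and 39.7% of MYEOV with IAA, and 13.7% of HEXIM1 and 6.81% of MYEOV in Control.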

How the data were processed

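The data are ChIP-seq peak lists, 16 from immunoprecipitations and 2 from inputs, grouped by title. The submitters' processing notes name MACS2 2.2.7.1, Bowtie2 2.3.4.1, deepTools 3.5.1, Picard 2.25.7 and Trim Galore 0.6.6 with build hg38. Not given in the sources used here are their options and whether inputs served as control. Every library has a list of its own from the authors, without pooling. The deposited columns hold, for every peak, a summit position, a fold over local background, and a p and a q value as −log10. These values are the authors' own for each peak and were used to describe, rank and filter peaks within a list.

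The analysis kept peaks of chromosomes 1 to 22 and X that shared no base with a peak of either input. Genes came from RefSeq GRCh38.p14; strand was known for 15813 of 19974 genes, and the table gives no exons. Interior calls used 18727 genes of at least 2 kb. Read totals are not in the lists: fragments at the summit and local background were solved from the deposited fold, read as (fragments + 1) over (background + 1), and the deposited −log10 p, read as a Poisson probability. For 100% of peaks some whole number of fragments met both within a relative tolerance of 0.0002. Stacks and backgrounds are therefore estimates that carry counting error, and PCR copies are not independent molecules. Gained and lost calls and the fragment solution were tested on simulated data. Libraries were compared by two-sided exact permutation tests in SciPy 1.17.1 with Python 3.11.15, NumPy 2.4.6 and pandas 2.3.3.

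The 10 genes and the list of 23 others were chosen with earlier results of these data known. Named were all 10 genes, the genes of the 23 with gained or lost interior Ser2P peaks (at most 8), the nearest pattern for 1 gene per complex and neighbours under a peak; MLLT1 was named after its values were seen. A further gene of the planned list is not reported here. Alternatives were the window at gene ends, input peaks kept, −log10 q of at least 5, lists of equal length, interior by overlap, joined peaks, like length of 0.5 to 2 times, a replicate block and each library left out.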

Additional observations from a re-analysis of the deposited data

How the results depend on the processing

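The count of the 10 genes that gained interior Ser2P peaks was 0 with lists of equal length in place of 5, and 4 with −log10 q of at least 5, where SUPT5H dropped out. The gaining share of genes of like length, 22.7%, was 1.54% with lists of equal length. The ratio of interior Ser2P peaks was 10 with the settings of the report, 23 with peaks within 1 kb joined, and 5 to 10.7 with a library left out; it has no value with lists of equal length or without Ser2P Control replicate 1, because the Control sum is then 0. The Ser2P difference of 13.5 peaks was 0.5 with lists of equal length, 9 with −log10 q of at least 5 and 11 to 15 under the other settings. The count of gaining genes was 5 under the other settings run with all libraries kept. The count of genes with a Pol II start peak in all libraries was 8 or 9 under every setting run. Leaving out 1 library at a time gave 5 to 6 gaining genes (NELFB joined without Ser2P Control replicate 1), a like-length share of 22.6% to 39.2%, the highest without Ser2P Control replicate 1, and a Tyr1P ratio of 0 to 1.33 against 0.667. The Tyr1P difference of -0.5 ran from -1.5 to 0.5 with a library left out, and was 0.5 with the 500 bp window at gene ends and with interior by overlap, so its sign changed. Leaving out replicate 2 of both Ser2P groups, added after seeing the data, gave 5 genes, a ratio of 5.33 and a like-length share of 28.9%.

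The replicate numbers are not stated to pair the samples. Deviations of same-numbered libraries from their group means correlated over 18727 genes at 0.228 for Pol II, -0.0288 for Tyr1P and -0.120 for Ser2P. With the replicate block, which asks for more interior peaks with IAA within both pairs, 5 genes gained, 8 had a Pol II start peak in all libraries, the differences were 13.5 for Ser2P and -0.5 for Tyr1P, and the like-length share was 40.5%. With crossed numbers for Ser2P, added after seeing the data, 5 genes gained. Ser2P Control replicate 2 had the lowest Ser2P depth, 3.28 fragments per kb.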
